A study of Mus musculus with 10 samples.

Results

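The cytoplasmic ribosomal protein genes encode the protein part of the ribosome, the particle that translates messenger RNA into protein. They were found by symbol, as genes named Rpl or Rps with a number (and Rpsa), without named pseudogenes and without the ribosomal S6 kinases. This gave 87 of the 53715 genes in the count files, 51 of the large and 36 of the small ribosomal subunit. Of these, 81 are annotated as protein-coding, and the other 6 (Rps4l, Rps12l1, Rpl32l, Rpl6l, Rps3a2 and Rps3a3) have a pseudogene annotation. The rule misses 6 further genes of the ribosome, among them Rplp0, Rplp1, Rplp2, Fau and Rack1, which are described apart. The question of the comparison was whether microglia of the midbrain (Mdb) and of the striatum (Str) differ in healthy mice.

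The cells were microglia isolated with beads against CD11b, a surface protein that other myeloid cells also carry. The mice were untreated C57BL/6 animals (C57BL/6 J in the study's methods) aged 3 months, with no transgene or targeted allele in any group, and the study's methods describe them as males. Bulk libraries were made from poly-A RNA and read from the 3′ ends. The experiment labelled as the pilot (Exp 1) held 2 midbrain and 2 striatum libraries, and the second experiment (Exp 2) held 2 of each region whose labels agreed. A further 2 libraries of Exp 2 name the midbrain in one label and the striatum in another, and they entered no comparison. The study's description gives as many mice in each experiment as libraries per region, if those with conflicting labels are counted. Which midbrain and which striatum library of Exp 2 came from the same mouse was not settled, because the numbers in the titles and in the other label disagree.

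The 8 libraries held 575709 to 8463782 counts. A level of 3 counts was taken as the floor, which was 0.354 to 5.21 CPM (CPM being the count of a gene divided by the scaled size of its library), and the shallowest library was replicate 3 of Str Exp 2. Canonical microglial genes were abundant, for example Csf1r at 4331 to 7047 CPM, after scaling with the trimmed mean of M-values (TMM). Bulk RNA cannot tell fewer cells of a type from less RNA per cell. Markers of other myeloid cells were higher in the midbrain libraries of both experiments. The summed level of 8 monocyte genes was 364 to 429 CPM in Mdb and 152 to 173 CPM in Str of Exp 1, and 785 to 3030 CPM in Mdb and 159.8 to 231 CPM in Str of Exp 2. The summed level of 10 border macrophage genes was 1994 to 3139 CPM over all midbrain and 644 to 1391 CPM over all striatum libraries, and that of 9 neutrophil genes 1165 to 6651 CPM against 882 to 1034 CPM. The 14 microglial marker genes summed to 15050 to 18530 CPM in the midbrain and 20840 to 28010 CPM in the striatum. No gene of these lists was at 0 in every library. The part of these markers in the results that follow was not tested.

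A ribosome joins a small subunit, which holds the messenger RNA and reads its codons, to a large subunit, which forms the peptide bond and guides the new protein out through a tunnel. Each subunit holds a fixed set of proteins, so their genes are usually expressed together and belong to the most abundant messages of a cell. In vertebrates most of these messages begin with a C followed by a run of pyrimidines, the terminal oligopyrimidine tract, through which the kinase mTOR and the binding protein Larp1 set their translation. Microglia are the resident macrophages of the brain.

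Ribosomal protein genes took a larger share of the counts in every midbrain library than in any striatum library of the same experiment. In Exp 1 the 87 genes held 6.41% and 6.18% of all counts in the midbrain libraries and 5.01% and 5.85% in the striatum libraries. In Exp 2 they held 9.20% and 7.51% in the midbrain and 5.60% and 5.68% in the striatum. The regions did not overlap within either experiment, but the gap between the nearest libraries in Exp 1 was smaller than that between the 2 striatum libraries. These shares are sums over all 87 genes and carry no test.

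The small subunit held more counts than the large subunit in all 8 libraries. Its share was 3.59% and 3.48% in Mdb and 2.79% and 3.08% in Str of Exp 1, and 4.90% and 4.06% in Mdb and 2.95% and 2.96% in Str of Exp 2. The large subunit took 2.82% and 2.71% in Mdb and 2.22% and 2.77% in Str of Exp 1, so its regions overlapped there. In Exp 2 it took 4.30% and 3.45% in Mdb and 2.64% and 2.72% in Str, without overlap. The ratio of large to small subunit counts ran from 0.778 to 0.918 over the libraries, and it was lower in each midbrain library than in any striatum library of its experiment.

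**Figure D1:**
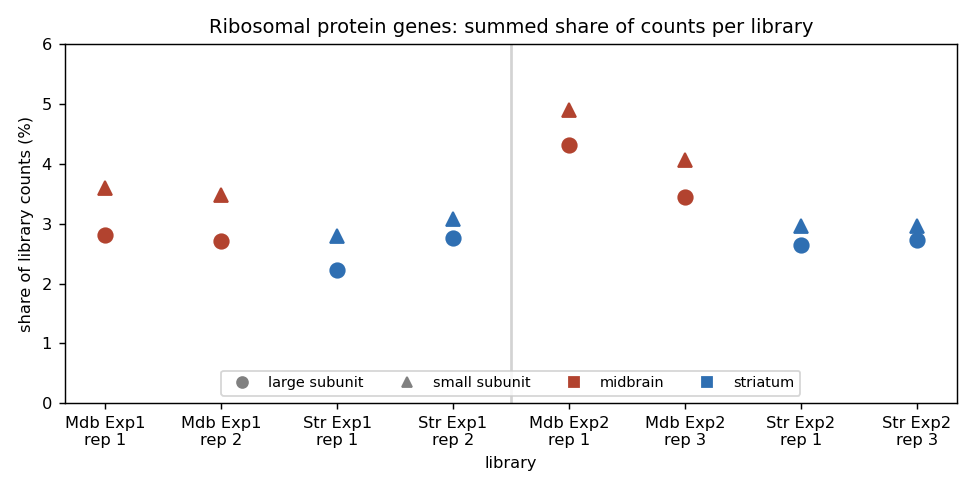
Share of each library's counts (percent, axis from 0) held by ribosomal protein genes of the large (circles) and small subunit (triangles), for 4 midbrain (red) and 4 striatum (blue) libraries. The 2 midbrain libraries of Exp 2 stand highest for both subunits, at 3.45% to 4.90%, and the large subunit overlaps between regions in Exp 1.

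Levels differed widely between genes. After division by exon length the highest means over the 8 libraries in the small subunit were those of Rps21 (3928 CPM per kilobase), Rps29 (3204) and Rps15 (2283), and in the large subunit those of Rpl36 (3130), Rpl38 (1698) and Rpl17 (1370.0). Rplp1, a protein of the stalk that recruits elongation factors, stood above all of them at 12337 CPM per kilobase. Libraries of 3′ ends give counts that need not grow with length, so this scale favors short genes.

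Of each pair of related genes, the broadly expressed one was usually the higher. Rpl22, an RNA-binding protein of the large subunit, had a mean level of 244 CPM per kilobase and its paralog Rpl22l1 3.24. The values were 460 for Rps27 and 151 for Rps27l, a gene known as a target of p53, and 146 for Rpl36a and 9.50 for Rpl36al. Rpl7 stood at 183 and Rpl7l1 at 30.3, and Rps4x at 207 and Rps4l at 57.8. The muscle paralog Rpl3l had 0.777 CPM per kilobase beside 168 for Rpl3, and the testis paralog Rpl10l had 0.110 beside 247 for Rpl10. The exception was Rpl39, a protein at the tunnel exit, at 2.57 CPM per kilobase beside 9.10 for Rpl39l. Rpl39, Rpl39l, Rpl3l and Rpl10l lay at or under the floor of 3 counts in at least 1 library. The order of Rpl39 and Rpl39l therefore rests on few counts. Rpl3 had at least 292 counts in each of the 8 libraries and Rpl3l at most 28, and Rpl10 had at least 309 and Rpl10l at most 3. Rps3a1, the expressed gene of the Rps3a family, had 808 CPM per kilobase.

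Many ribosomal protein genes have near-identical copies elsewhere in the genome, and the counting left out reads with several matching places. The files name 293 pseudogene copies of 58 of the 81 protein-coding members, up to 24 for Rps12. Of the windows of 50 bases in the last 400 bases of the transcripts, a median of 64.1% also occurred in transcripts of another gene over the 81 protein-coding members, and 0% over 12569 protein-coding genes tested. At least 50% of the windows were shared in 43 members and in 5.71% of all those genes. The median level was 606 CPM in these 43 and 885 CPM in the other 38. Rpl24, an ordinary large subunit protein, had 86.6% shared windows and a mean level of 1.25 CPM, and Rps12 had 96.3% and 3136.5 CPM. Absolute levels of genes with shared ends are therefore uncertain, while the same copies are present in all libraries.

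Ribosomal protein genes were on the whole modestly higher in the midbrain, with 4 of them past the threshold once both experiments were fitted together. Of the 87 genes, 83 passed the filter on low counts in Exp 1 and 82 in Exp 2 and in the joint fit. Rpl10l, Rpl24, Rpl3l, Rpl6l and Rps12l1 did not enter the joint fit, and Rps12l1 had no count in any of the 8 libraries. The median log2 fold change (midbrain over striatum) of the 82 genes in the joint fit was 0.37, or 1.29-fold, beside 0.04 over all 14053 genes tested. It was 0.35 for the large subunit, with 43 of 47 genes higher in the midbrain, and 0.48 for the small subunit, with 34 of 35. Over all genes tested 54.4% were higher in the midbrain. The genes share libraries and scaling, so these counts are a description.

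In the joint fit, limma with voom called Rpl41, Rps10, Rps19 and Rpsa higher in the midbrain (Benjamini-Hochberg adjusted p under 0.05 over all genes tested) and no member lower. That is 4 of 82 members, 1 of the large and 3 of the small subunit. Of all genes tested 1.06% were called, 0.975% higher and 0.0854% lower. At an unadjusted p under 0.05 there were 44 members, all higher, 20 of the large and 24 of the small subunit, where 14.6% of all genes tested passed and 9.35% were higher. With edgeR's quasi-likelihood test 3 members were called (1.69% of all genes), and with DESeq2 13 (3.94% of all genes). The number of calls changed with the libraries that entered the fit. The count fell to 0 when either midbrain library of Exp 1, replicate 1 of Str Exp 1, replicate 1 of Mdb Exp 2 or either striatum library of Exp 2 was left out, to 2 without replicate 3 of Mdb Exp 2, and rose to 6 without replicate 2 of Str Exp 1. Over all genes, none was called without replicate 1 of Mdb Exp 1 or replicate 1 of Str Exp 2. The share was 0.584% without replicate 2 of Mdb Exp 1, 0.0661% without replicate 1 of Str Exp 1 and 0.0214% without replicate 3 of Str Exp 2. It was 0.999% without replicate 1 and 1.73% without replicate 3 of Mdb Exp 2, and 1.43% without replicate 2 of Str Exp 1.

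Rpsa, a small subunit protein also described as a laminin receptor precursor, had a level of 1518 and 1483 CPM in Mdb and 944 and 947 CPM in Str of Exp 1, and 1588 and 1346 CPM in Mdb and 996 and 607 CPM in Str of Exp 2. All 4 midbrain libraries stood above all 4 striatum libraries. Its joint log2 fold change was 0.77 (SE 0.15, adjusted p = 0.0410 by limma). It was also the only member called within both experiments at an unadjusted p under 0.01.

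Rps10, which lies near the entry of the messenger RNA and is ubiquitinated on stalled ribosomes, had 1551.5 and 1534 CPM in Mdb and 1029 and 1015 CPM in Str of Exp 1. In Exp 2 it had 1439.5 and 1204 CPM in Mdb and 888 and 775 CPM in Str. The regions were separate over all 8 libraries, and the replicates of Exp 1 lay close together, with an SD of 12.2 CPM in Mdb and 9.99 CPM in Str (n = 2 each). The joint log2 fold change was 0.62 (SE 0.12, adjusted p = 0.0332 by limma).

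Rps19, needed for the maturation of the small subunit and mutated in Diamond-Blackfan anemia, had 1482 and 1406 CPM in Mdb and 994 and 1101 CPM in Str of Exp 1. In Exp 2 the values were 1389.8 and 1571 CPM in Mdb and 854 and 794 CPM in Str. No striatum library reached a midbrain library in either experiment. Its joint log2 fold change was 0.64 (SE 0.13, adjusted p = 0.0396 by limma).

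Rpl41, a very short protein and the only large subunit gene called, had 1536 and 1315 CPM in Mdb and 762 and 1026 CPM in Str of Exp 1. In Exp 2 it had 1784 and 1422 CPM in Mdb and 859.9 and 931 CPM in Str. Again the lowest midbrain library lay above the highest striatum library, although the replicates of Str Exp 1 were wide apart (894 ± 187 CPM, SD, n = 2). The joint log2 fold change was 0.76 (SE 0.14, adjusted p = 0.0321 by limma). Leave-one-out fits numbered 8, of which 2 kept the call of Rpl41, 2 that of Rps10, 1 that of Rps19 and 1 that of Rpsa. The log2 fold changes in those fits stayed between 0.54 and 0.86.

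**Figure D2:**
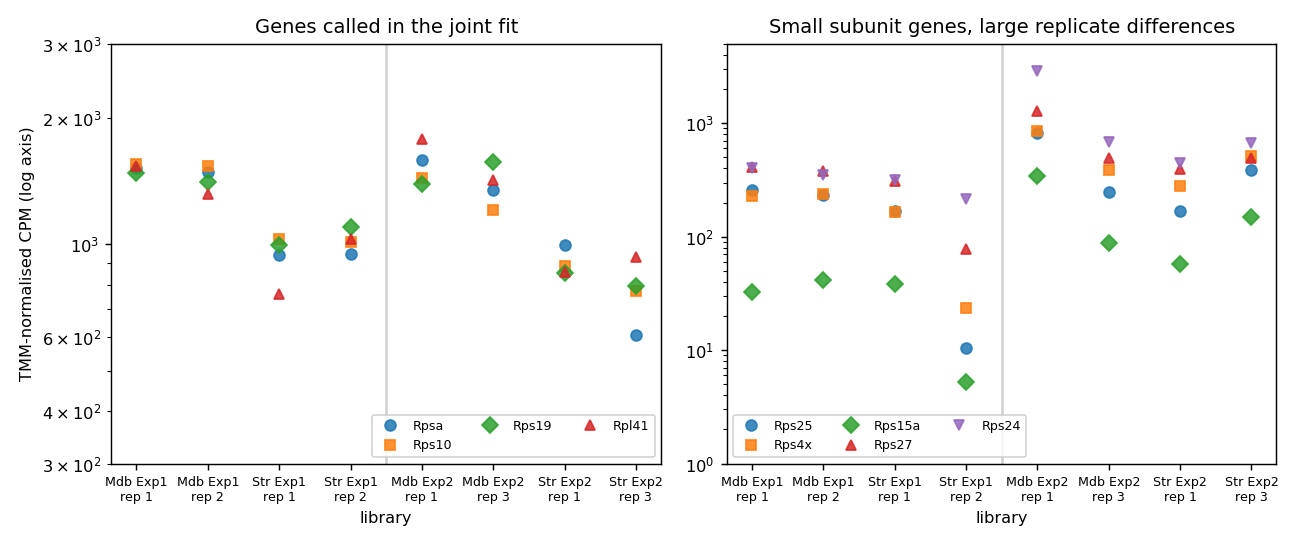
TMM-normalized level (CPM, log axis) in each of the 8 libraries of the 4 genes called in the joint fit (left) and of 5 small subunit genes with large differences between replicates (right). On the left the midbrain points of each gene lie above its striatum points, and on the right replicate 2 of Str Exp 1 is lowest and replicate 1 of Mdb Exp 2 highest for each gene.

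The starts of the genes were searched for the oligopyrimidine tract that their messages are known for, here a C followed by at least 5 letters C or T that begins within 25 bases of an annotated start, on the strand of the gene. Such a tract was found for 46 of 63 members with an entry among the RefSeq promoters (73%), 27 of 39 in the large and 19 of 24 in the small subunit, and for 41.2% of all 27025 genes with an entry. The starts of the genes called in the joint fit and of 5 genes with large replicate differences are shown because both sets hold genes with and without a tract. Capitals mark the longest tract, the build is GRCm38.p6, and each sequence reads 5′ to 3′ on the strand given.
Rpl41, chr10:128549149-128549178, minus strand: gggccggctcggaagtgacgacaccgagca
Rps10, chr17:27635228-27635257, minus strand: gccgcgcacgCCCCTTCCTTTCCagcctcc
Rps19, chr7:24884909-24884938, plus strand: gtgtggagggCTCTCCCacgcggtcaccac
Rpsa, chr9:120127777-120127806, plus strand: ggccgcccgtCCTTTCgcgctacccgggga
Rps25, chr9:44407682-44407711, plus strand: ggccaccgggCTTCCTTTTTTTCCgacatc
Rps4x, chrX:102189372-102189401, minus strand: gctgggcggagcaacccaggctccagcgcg
Rps15a, chr7:118116143-118116172, minus strand: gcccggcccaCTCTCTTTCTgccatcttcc
Rps27, chr3:90213631-90213660, minus strand: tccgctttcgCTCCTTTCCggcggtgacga
Rps24, chr14:24490666-24490695, plus strand: gcgctggggtCCTTCCTTgcgcgttgatat
Rps25 had the longest of these tracts with 14 bases, Rps10 had 13, and Rpsa had 6. The tracts did not all begin at the annotated start. Those of Rps25, Rps15a, Rps10, Rps27 and Rps24 began 22, 15, 3, 2 and 2 bases before it. Those of Rps19 and Rpsa began 6 and 21 bases after it. Rpl41 and Rps4x had no such tract in the window searched, and their sequences show the annotated start.

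The largest regional differences belonged to small subunit genes that did not pass the threshold and whose replicates differed widely. Rps25, a small subunit protein needed for translation from some viral entry sites, had 261 and 233 CPM in Mdb and 169.9 and 10.5 CPM in Str of Exp 1. In Exp 2 it had 818 and 248 CPM in Mdb and 168 and 388 CPM in Str. The regions overlapped in Exp 2, and the joint log2 fold change of 1.88 had an SE of 0.71 (adjusted p = 0.243 by limma).

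Rps4x, an X-linked small subunit gene, had 228 and 239 CPM in Mdb and 166 and 23.5 CPM in Str of Exp 1, and 859 and 391 CPM in Mdb and 278 and 512 CPM in Str of Exp 2. Rps15a had 32.9 and 41.2 CPM in Mdb and 38.5 and 5.26 CPM in Str of Exp 1, and 343 and 87.7 CPM in Mdb and 57.5 and 149.5 CPM in Str of Exp 2. For both genes the regions overlapped in Exp 2, and for Rps15a they overlapped in Exp 1 as well. The joint log2 fold changes were 1.36 for Rps4x (SE 0.50, adjusted p = 0.237 by limma) and 1.38 for Rps15a (SE 0.56, adjusted p = 0.284 by limma).

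Rps27, a zinc finger protein of the small subunit, had 415 and 377 CPM in Mdb and 309.7 and 77.7 CPM in Str of Exp 1, and 1279 and 493 CPM in Mdb and 394 and 491 CPM in Str of Exp 2. Its regions were separate in both experiments, by a small margin in Exp 2, with a joint log2 fold change of 1.14 (SE 0.39, adjusted p = 0.201 by limma). Rps24, another gene of Diamond-Blackfan anemia, had 403 and 353 CPM in Mdb and 313 and 213 CPM in Str of Exp 1, and 2904 and 686 CPM in Mdb and 449.6 and 668 CPM in Str of Exp 2. Its regions were separate in both experiments, again narrowly in Exp 2.

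The same 4 genes were low in the same library. In replicate 2 of Str Exp 1 the level was below that of replicate 1 by 14.8-fold for Rps25, 6.81-fold for Rps4x, 6.31-fold for Rps15a and 3.95-fold for Rps27, on the scale of CPM plus 1. Outside the ribosome, mt-Co1 and B2m, chosen after their values were seen, were low there too. The mitochondrial gene mt-Co1 had 7.84 CPM in this library and 92.8 to 287 CPM in the other 7, and B2m, the light chain of class I histocompatibility molecules, had 473 CPM and 2437 to 8522 CPM. This was the deepest library, and it held the lowest level of 12 of the 82 members tested jointly (14.6%, beside 12.2% of all genes). What set these genes apart in that library was not tested.

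At the other end, few genes leaned toward the striatum, and none was called lower. The lowest joint log2 fold changes were −0.28 for Rpl39l, −0.26 for Rpl39, −0.14 for Rpl7l1 and −0.07 for Rpl15 in the large subunit and −0.06 for Rps6 in the small subunit, with adjusted p of 0.783, 0.833, 0.684, 0.864 and 0.885 by limma. Rpl7l1, which acts in ribosome assembly, had 71.9 to 77.5 CPM in the midbrain and 75.7 to 89.5 CPM in the striatum. Rps6, the substrate of S6 kinase downstream of mTOR, had 93.3 and 100.4 CPM in Mdb and 98.4 and 113 CPM in Str of Exp 1, and 183 and 142 CPM in Mdb and 173.5 and 131 CPM in Str of Exp 2. Its regions overlapped in both experiments.

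Within Exp 1 alone the regional difference was small for the large subunit. The median log2 fold change was 0.08 for 48 large subunit genes and 0.30 for 35 small subunit genes, beside 0.02 over all 14972 genes tested. There 32 large and 28 small subunit genes were higher in the midbrain, where 51.6% of all genes tested were. Rpsa alone was called at an unadjusted p under 0.01 (log2 fold change 0.62, SE 0.17, adjusted p = 0.323 by limma), 1 of 83 members where 2.64% of all genes tested were called and 2.09% were called higher. At an adjusted p under 0.05 limma called no member, beside 0.00668% of all genes. Without replicate 1 of Str Exp 1, 22 members were called, 14 of them higher, where 16.8% of all genes were called, and the large subunit median became −0.08. Without replicate 2 of Str Exp 1, 33 members were called, all higher, where 4.22% of all genes were, and the median was 0.34. Without replicate 1 of Mdb Exp 1 the medians were 0.12 for the large and 0.34 for the small subunit. Without replicate 2 of Mdb Exp 1 they were 0.11 and 0.32.

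In Exp 2 the difference was larger, and both subunits had it. The median log2 fold change was 0.55 for 47 large and 0.64 for 35 small subunit genes, beside 0.00 over all 13486 genes tested. In the midbrain 44 large and 34 small subunit genes were higher, where 49.9% of all genes were. At an unadjusted p under 0.01, 11 of 82 members were called, all higher, where 3.47% of all genes tested were called and 2.88% were called higher. In the large subunit these were Rpl23, a binding partner of Mdm2, Rpl37, Rpl37a, Rpl38 and Rpl41. In the small subunit there were 6, among them Rps18, Rps19, Rps23, which lies at the decoding center, Rps28 and Rpsa. With an adjusted p under 0.05 no member was called by limma, beside 0.356% of all genes.

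The largest change among the genes called in Exp 2 was that of Rps28, at 1839 and 898 CPM in Mdb and 460.5 and 699 CPM in Str (log2 fold change 1.20, adjusted p = 0.220 by limma). Rpl37 followed with 2742 and 1632 CPM in Mdb and 1121 and 928 CPM in Str (1.03, adjusted p = 0.186 by limma). For both genes the nearest libraries of the regions were closer than the replicates of the midbrain.

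The count of Exp 2 depended on single libraries and on the libraries with conflicting labels. Without replicate 3 of Mdb Exp 2, 52 members were called, where 10.1% of all genes were. Without replicate 1 of Str Exp 2 the count was 1 (6.13% of all genes), and without replicate 3 of Str Exp 2 it was 0 (2.91%). Without replicate 1 of Mdb Exp 2, the library with the highest levels, 15 were called (3.24% of all genes), and the medians of the large and small subunit were 0.36 and 0.45. Adding the 2 libraries with conflicting labels by their titles left 0 members called (0.996% of all genes) and moved the medians to −0.01 and 0.03. Adding them by their other label gave 53 called members, all higher, with medians of 0.71 and 0.87, where 5.22% of all genes were called. The regional difference of Exp 2 is therefore given for the 4 libraries with agreeing labels only.

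Most members leaned to the midbrain in each experiment, 60 of 83 in Exp 1 and 78 of 82 in Exp 2. These leans alone put most members on the same side in both, so a count of shared direction does not show agreement gene by gene. Of 82 members, 58 leaned to the midbrain in both experiments and 3 to the striatum in both, and for 69 the change was larger in Exp 2. The shares of all genes for these counts were not computed. Taken alone, Exp 1 had 51.6% and Exp 2 had 49.9% of all genes tested leaning to the midbrain. The lean of Exp 1 was unstable, with 17 large subunit genes higher without replicate 1 of Str Exp 1 and 44 without replicate 2. The experiments share no library. In 24 members, the 2 midbrain libraries lay above the 2 striatum libraries in both experiments, where 9.06% of all genes tested did so. These were 8 of the large subunit (Rpl3, Rpl9, Rpl13a, Rpl18, Rpl21, Rpl28, Rpl36 and Rpl41) and 16 of the small subunit (among them Rps3, Rps3a1, Rps7, Rps9, Rps10, Rps15, Rps18, Rps19, Rps24, Rps26, Rps27, Rps27l, Rps28 and Rpsa). No member lay lower in the midbrain in this way, where 6.04% of all genes did. In single experiments 34 members in Exp 1 (14 large, 20 small) and 58 in Exp 2 (31 large, 27 small) were higher without overlap, where 23.1% and 23.5% of all genes were. Lower without overlap were 3 members in Exp 1 and 1 in Exp 2, where 19.8% and 17.2% of all genes were.

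**Figure D3:**
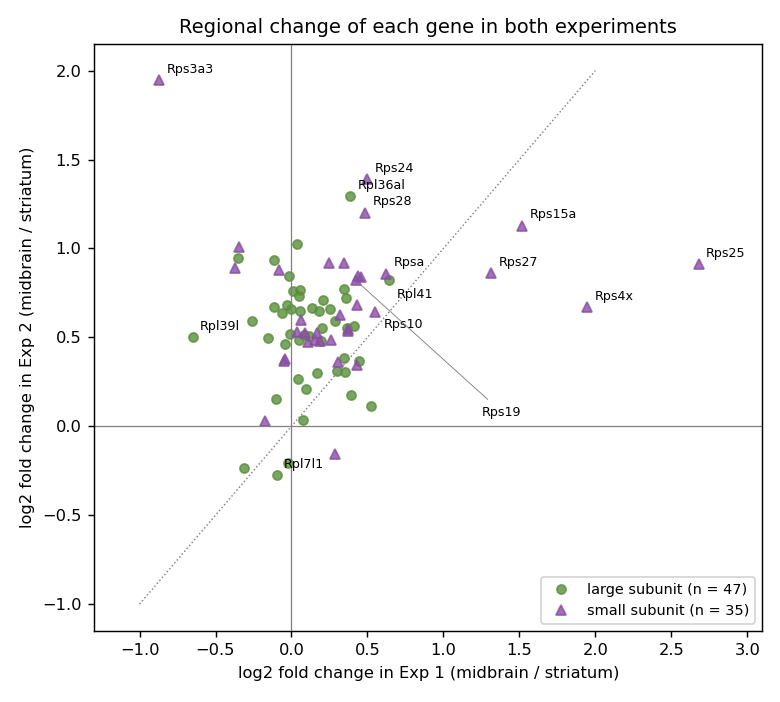
Log2 fold change (midbrain over striatum) in Exp 1 (horizontal) and Exp 2 (vertical) of 82 ribosomal protein genes, large subunit as circles and small subunit as triangles, with a dotted line of equal change. Most genes (58) lie to the upper right of 0 and 69 have the larger change in Exp 2, while Rps25, Rps4x, Rps15a and Rps27 lie far to the right.

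No member passed the test of a difference between the regional changes of the experiments. The interaction term gave 0 members at an adjusted p under 0.05 by limma, edgeR and DESeq2, where 0% of all genes were called by limma. At an unadjusted p under 0.05 there were 12 members by limma, 7 large and 5 small, each with the larger midbrain excess in Exp 2, where 5.49% of all genes passed and 2.42% had that direction. The median interaction was 0.36 for members and −0.02 for all genes on the log2 scale. Rpl23 had an interaction of 1.27, with an adjusted p of 0.860 by limma. Rps3a3, with under 3 CPM in every library, was the only member with separate regions in opposite directions.

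Levels also differed between the experiments. Averaged over the regions, the median log2 fold change of Exp 2 over Exp 1 was 0.37 for members and −0.02 for all genes. It passed the threshold for 18 members (adjusted p under 0.05 by limma), 11 of the large and 7 of the small subunit, where 10.5% of all genes did (4.71% higher and 5.82% lower). Of these 17 were higher in Exp 2, among them Rps15a (2.38), Rps29 (1.15) and Rpl21 (1.23), and only Rpl23a was lower (−1.33). Rpl23a had 142 to 251 CPM in Exp 1 and 59.7 to 129.7 CPM in Exp 2. The mean share of counts in members was 5.43% in Exp 1 and 5.64% in Exp 2 in the striatum, where the libraries overlapped, and 6.30% and 8.35% in the midbrain. The experiments held different libraries, and the labels name only one of them as a pilot.

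Members also differed between replicates, most in Str Exp 1 and Mdb Exp 2 by their medians. In Mdb Exp 1 the median difference of replicate 2 from replicate 1 was −0.01 over members on the scale log2(CPM + 1), and the median absolute difference was 0.10, beside 0.21 over all genes. In Str Exp 1 replicate 2 was higher by a median of 0.30, with 0.37 in the large and 0.15 in the small subunit, beside −0.03 over all genes. The median regional difference of Exp 1 was 0.17 over members. In Mdb Exp 2 the median difference of replicate 3 from replicate 1 was −0.35, beside −0.03 over all genes, and 11 of 82 members differed by over 1 (13.4%, beside 11.3% of all genes). The median regional difference of Exp 2 was 0.59 over members. In Str Exp 2 the median was −0.03, beside −0.12 over all genes. Its members still differed in both directions, with a median absolute difference of 0.32, beside 0.52 over all genes. The median absolute difference was 0.36 in Str Exp 1 and 0.36 in Mdb Exp 2, beside 0.33 and 0.36 over all genes.

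**Figure D4:**
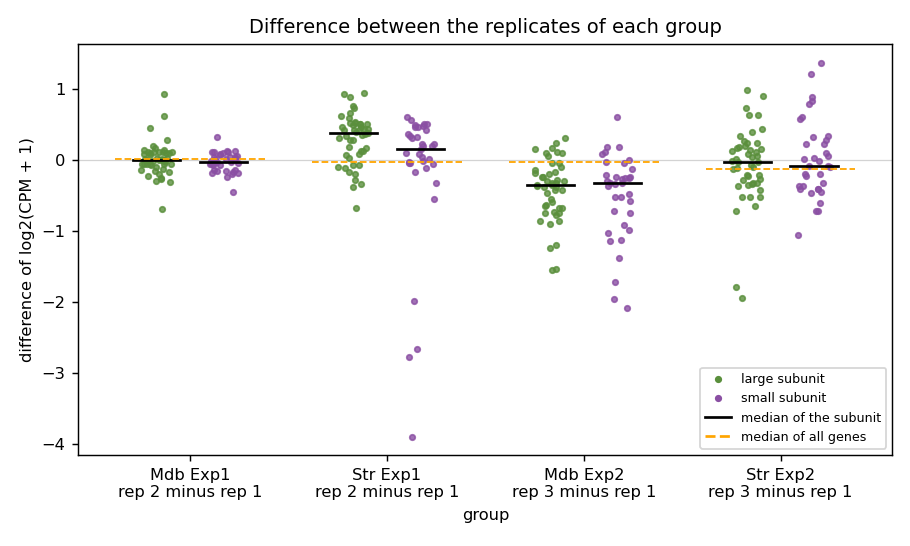
Difference of log2(CPM + 1) between the 2 replicates of each group for 82 ribosomal protein genes, with the median of each subunit (black) and of all genes tested (orange, dashed). Members scatter least in Mdb Exp 1, lie mostly above 0 in Str Exp 1 and mostly below 0 in Mdb Exp 2, and 4 small subunit genes of Str Exp 1 lie at or below −1.98.

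A pair of libraries accounted for most of the extremes. Replicate 1 of Mdb Exp 2 held the highest level of 63 of 82 members (76.8%), 36 large and 27 small, and of 19.2% of all genes. Replicate 1 of Str Exp 1 held the lowest level of 39 members (47.6%) and of 7.17% of all genes. Replicate 1 of Mdb Exp 2 also had the highest summed level of monocyte genes (3030 CPM, with 785 CPM in its replicate) and of neutrophil genes (6651 CPM, with 4225 CPM), and the part of these cells was not tested. Without this library the joint medians were 0.18 for the large and 0.37 for the small subunit.

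Over 2-fold differences between replicates occurred in 14 of 82 members, 6 large and 8 small. By group, the share of members was 0% in Mdb Exp 1, 4.88% in Str Exp 1, 13.4% in Mdb Exp 2 and 6.1% in Str Exp 2. The share of all genes tested was 3.01%, 8.99%, 11.3% and 25.4% in the same order. After the genes low in replicate 2 of Str Exp 1, the largest difference was that of Rps24 in Mdb Exp 2, 4.23-fold. Rpl36a (2.93-fold), Rpl36al (2.89-fold), Rpl22l1 (2.36-fold), Rpl35a (2.29-fold), Rps27a (2.20-fold) and Rps28 (2.05-fold) differed most in the same group, each higher in replicate 1. Rpl39, Rpl39l and Rps4l differed most in Str Exp 2, and the first 2 of these were under the floor in its shallow replicate 3. Rps27a, made as a fusion with ubiquitin, had 574 and 260.4 CPM in Mdb and 164 and 292 CPM in Str of Exp 2, so the regions overlapped.

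Several members are known for roles apart from the ribosome. Rpl5 and Rpl11, which bind Mdm2 with the smallest ribosomal RNA, had joint log2 fold changes of 0.30 and 0.43 (adjusted p = 0.482 and 0.208 by limma). Rps3, also described as a DNA repair enzyme, had 2262 and 2457 CPM in Mdb and 1849.8 and 1815 CPM in Str of Exp 1, and 2807 and 2291 CPM in Mdb and 1854 and 1397 CPM in Str of Exp 2. Its regions were separate in both, with a joint log2 fold change of 0.50 (adjusted p = 0.107 by limma). Rpl13a, which silences inflammatory messages after its release from the ribosome in myeloid cells, had 35.3 to 77.4 CPM in the 8 libraries and a joint log2 fold change of 0.33 (adjusted p = 0.334 by limma). Rpl38, known for its part in body patterning, had 0.42 (adjusted p = 0.447 by limma). Rpl4 and Rps2 had 0.23 and 0.36 (adjusted p = 0.482 and 0.345 by limma).

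The ribosomal genes that the symbols miss lay in the same range. Of 6, 5 were higher in the midbrain in the joint fit, with a median log2 fold change of 0.37, and none was called. Rplp0, Rplp1 and Rplp2 form the stalk of the large subunit and had 0.45, 0.31 and 0.41. Rack1, a scaffold for signaling proteins on the small subunit, had 0.46 and Fau, a fusion with a ubiquitin-like protein, 0.34.

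Of the other parts of the translation machinery, no gene was called in the joint fit. Of 10 elongation factors and associated proteins 9 were higher in the midbrain, with a median log2 fold change of 0.23, and of 27 initiation factors 20 were, with a median of 0.19. For 30 genes of ribosome biogenesis, which process ribosomal RNA and assemble subunits, the median was 0.02 with 16 higher. The median was 0.33 for 7 hosts of small nucleolar RNAs, a class of genes that also carry oligopyrimidine tracts, with 6 higher. In Exp 2 alone these 7 hosts were all higher with a median of 0.70, beside 0.59 for the ribosomal protein genes, and in Exp 1 alone the elongation factors had a median of 0.22, beside 0.17. Of 18 genes of growth and translation control, mTOR among them, 5 were higher, with a median of −0.10. The 75 mitochondrial ribosomal protein genes, which serve a separate ribosome, had a median of 0.03 with 39 higher. Differences between these lists and the cytoplasmic ribosomal proteins were not tested.

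Markers of several other cell types moved with region. In the joint fit all 8 monocyte genes were higher in the midbrain, 4 of them called, with a median log2 fold change of 2.19. Of 9 border macrophage genes all were higher and 6 called, with a median of 1.6, and of 9 neutrophil genes 8 were higher and 4 called, with the same median. Of 7 genes of T and NK cells 6 were higher and 1 called, with a median of 1.40. Of 8 pericyte and smooth muscle genes all were higher, with a median of 0.68, of 5 ependymal and choroid plexus genes all were higher, with a median of 0.65, and of 5 neuronal genes 3 were higher, with a median of 0.51. Medians were 0.23 for 8 astrocyte genes (4 higher), 0.12 for 8 oligodendrocyte genes (6 higher), −0.09 for 8 endothelial genes (3 higher) and −0.21 for 3 B cell genes (1 higher). None of the genes of these 7 lists was called. All 14 microglial genes were lower, 2 of them called, with a median of −0.54. Of 14 immediate early and dissociation genes, which rise during tissue handling, 13 were higher and 1 called, with a median of 0.61, and their summed level was 19520 and 23210 CPM in Mdb and 14310 and 23460 CPM in Str of Exp 1, and 24500 and 22480 CPM in Mdb and 12170 and 11710 CPM in Str of Exp 2.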

How the data were processed

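Microglial RNA of 10 libraries was measured as 3′ reads. Alignment by the authors used STAR 2.5.3a and GRCm38, and the authors then counted reads over Gencode M17 exons with featureCounts 1.6.0, without strand and without reads that map to several places or overlap several genes, and deposited the raw counts per gene without normalization. The low-count filter, TMM normalization (edgeR 4.0.16), voom, limma 3.58.1 (R 4.3.3) and the unadjusted p under 0.01 within experiments follow the study's methods. Symbols were matched to 53620 of 53715 identifiers with a table of Gencode M21. A gene was left out of a fit when over 50% of its libraries had under 6 counts. The joint fit had the experiment as covariate. P-values were two-sided and adjusted over all genes tested. Depth ranged from 575709 to 8463782 counts, and floors cover counting error only. Members and lists were chosen with earlier results of these data known. Named genes were those called, the 4 with the largest joint change in each direction, paralogs, genes with other roles and the highest 3 per kilobase. Some genes that these rules name are not reported here. Genes with large replicate differences and those with separate regions were named after their values were seen.

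Replicate numbers come from the titles. Deviations of same-numbered libraries correlated at −0.0389 in Exp 1 and 0.0750 in Exp 2 over all genes, and the main fits did not use the number as a pairing. With 2 libraries per group, each correlation compares 1 replicate difference per region, so it cannot show whether libraries share a mouse. In Exp 2 the replicate numbers disagree with the mouse numbers of the other label, and a pairing by mouse was not settled or tested. The procedures were tested on simulated data. As alternatives, DESeq2 1.42.0 and the quasi-likelihood test of edgeR were run, with other scalings, filters and weights, thinning, the replicate block, both placements of the 2 unassigned libraries and leaving out each library. RefSeq sequences are of GRCm38.p6, and the 3′ windows came from Gencode M21 transcripts.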

Additional observations from a re-analysis of the deposited data

Results flagged for a closer look

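Outside the comparisons stand the 2 libraries of Exp 2 whose labels name both regions. Each was taken up because it shows a signal in samples that no comparison used. Ribosomal protein genes held 4.30% of the counts in the first, whose title names the midbrain and whose other label names the striatum. They held 8.80% in the second, whose title names the striatum and whose other label names the midbrain. The first value lies below and the second within the range of the 8 assigned libraries, 5.01% to 9.20%. Rpsa had 652 CPM in the first and 1638 CPM in the second, Rps10 had 582 and 1243 CPM, Rps19 had 609.8 and 1623 CPM, and Rpl41 had 701 and 1680.0 CPM. Rps25 had 119 and 664 CPM, and Rps15a 54.4 and 219.8 CPM. The region of these libraries was not settled from their values.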

How the results depend on the processing

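Counts of called members depended on the processing more than the medians did. Beside each count stands the share of all genes called. In Exp 1 (1 member called) the count was 0 with edgeR (2.67%), 3 with DESeq2 (2.56%), 7 with library size only (2.86%), 4 with upper quartile factors (2.89%), 12 without a filter (3.42%), 2 with at least 10 counts in every library (2.83%), 2 with thinned counts (2.3%), 7 with quality weights (3.05%), and 0 to 33 on leaving out 1 library (0.749% to 16.8%). In Exp 2 (11) it was 19 without a filter (2.05%), 0 with the unassigned libraries placed by title (0.996%), 53 by their other label (5.22%), and 0 to 52 on leaving out 1 library (2.91% to 10.1%). In the joint fit (4) it was 13 with DESeq2 (3.94%), 9 without a filter (1.08%), 17 with quality weights (2.93%), 0 by title (0%), 14 by the other label (3.19%), and 0 to 6 on leaving out 1 library (0% to 1.73%). The check of the replicate numbers could not decide whether the replicate block is a pairing. With this block, Exp 1 had 4 members called (2.68%), Exp 2 had 34 (7.33%) and the joint fit had 6 (2.19%). A fit that leaves 1 library in a region assumes that it varies like the others. On leaving out 1 library the large subunit median ran from −0.077 to 0.34 in Exp 1, from 0.36 to 0.74 in Exp 2 and from 0.18 to 0.47 in the joint fit, and the small subunit median in Exp 2 from 0.45 to 0.87. Placing the unassigned libraries by title moved the large and small subunit medians to −0.015 and 0.033 in Exp 2 and to 0.048 and 0.16 in the joint fit, and by the other label to 0.71 and 0.87 in Exp 2 and to 0.48 for the large subunit in the joint fit. With the 6 ribosomal genes that the symbols miss added, the mean shares were 7.58% in Mdb Exp 1, 6.52% in Str Exp 1, 9.79% in Mdb Exp 2 and 6.74% in Str Exp 2, since the sum then holds more genes. The cause of the other moves was not tested.

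Joint log2 fold changes of single named genes were counted over combinations of a gene and a setting. They kept direction and side of the threshold in 891 combinations, gained the threshold in 27, lost it in 32 and changed sign in 23. Only Rpl41, Rps10, Rps19 and Rpsa, the genes called in the joint fit, had a call to lose. The 891 therefore do not measure how stable the calls were. On leaving out 1 library, Rpl41 and Rps10 kept the call in 2 of 8 fits each, and Rps19 and Rpsa in 1 of 8 each. In the other settings, Rpl41 and Rps10 kept it in 11 of 12 each, and Rps19 and Rpsa in 10 of 12 each. With thinned counts Rpl7l1 was at 0.045, and with quality weights Rpl15 at 0.042. On leaving out 1 library the value ran from −0.52 to 0.028 for Rpl39l, from −0.57 to 0.075 for Rpl39, from −0.17 to 0.0035 for Rpl15, from −0.025 to 0.17 for Rpl10, from −0.00065 to 0.32 for Rps4l, from −0.17 to 0.0023 for Rps6 and from −0.12 to 0.50 for Rps27a. Placed by title, the values were −0.12 (Rpl10), −0.028 (Rpl17), −0.099 (Rpl23), −0.0020 (Rpl3), −0.050 (Rpl36a), 0.045 (Rpl39), −0.083 (Rpl5), −0.022 (Rps21) and −0.027 (Rps23), and by the other label 0.13 (Rpl15), −0.15 (Rpl22l1) and 0.25 (Rps6). Depth limits genes under 5.21 CPM in the shallowest library.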
